A study of Mus musculus with 8 samples.

Results

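Genes of the cytosolic ribosomal proteins were examined in CUT&Tag data on the DNA binding of DC-SCRIPT, which is the product of Zfp366 and a zinc finger regulator found in dendritic cells. The set comprised 87 of 21883 nuclear protein-coding genes of the RefSeq table of GRCm38, chosen by symbol alone: Rpl or Rps followed by a digit, without the Rps6k kinases. By their names, 43 encode large-subunit proteins, 30 small-subunit proteins, and 14 are paralogs, retrogenes or, in the case of Rps19bp1, a binding protein of Rps19. The genes are short, from 0.374 to 16.8 kb with a median of 3.16 kb, against 17.2 kb over all protein-coding genes, and lie on 19 chromosomes.

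Conventional dendritic cells of type 1 (cDC1) and type 2 (cDC2) were sorted from spleens of female C57BL/6 mice, either wild type (zfp366+/+) or knockout (zfp366-/-). Each of the 8 libraries came from a pool of mice. For cDC1 there were 3 pools of wild type against 2 of knockout, and for cDC2 a single wild-type pool (1) against 2. The sources used here give neither ages nor the deleted part of the gene, and whether pools with the same number were paired is not stated. For each subset 1 list of peaks was analysed, in which wild-type tags (aligned fragments cut near the antibody-bound protein) exceeded knockout tags at least 4-fold. Every listed region therefore differed between genotypes by selection, and the lists cannot show regions that did not differ. The wild-type sets held 35.5 M and 4.77 M tags in cDC1 and cDC2, the knockout sets 12.1 M and 6.83 M, and no value per library stood in the lists, so no spread between pools can be given. Signal is given as normalised tags, the tags in a 191 bp peak per 10000000. Score, fold and p of a peak are the authors' own. The 95% intervals of a fold are exact for tags rounded to whole numbers and cover counting error only. The lists hold no measure of expression, so the sorted cells were not checked against markers.

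Ribosomal proteins surround ribosomal RNA in the small subunit, which reads the messenger RNA, and in the large subunit, which joins amino acids. Their genes are transcribed in nearly all cells at high rates, and their promoters are open and mostly without a TATA box. The messenger RNAs begin with a tract of pyrimidines (C or T in the DNA), through which growth signals acting on mTOR and Larp1 control their translation. In dendritic cells this machinery serves the protein synthesis that accompanies activation.

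The promoters of 8 genes are shown because they carry the highest-scoring cDC1 peaks within 250 bp of an annotated start, and because each lies partly inside its peak. Sequences are from RefSeq, build GRCm38.p6, printed in the direction of transcription from 130 bases before the start to 25 bases from it, so that base 131 is the first transcribed base. Capitals mark the longest run of C or T within 30 bases of the start, where at least 7 of its bases are printed. Any further run stays in lower case, also when it has 7 bases or more, as in Rpl31 and Rpl39. Capitals also mark a match on either strand to 1 of 8 motifs: CCGGAAG (ETS factors such as GABP), GAGGAAGT (PU.1), AAGATGGC (YY1), GGGCGG (SP1), TATAAA (the core promoter box), TGANTCA (AP-1), the interferon-stimulated response element of the IRF factors and TGACGTCA (CRE). Matches may overlap, as those of PU.1 and SP1 do in Rpl13a.
Rps19: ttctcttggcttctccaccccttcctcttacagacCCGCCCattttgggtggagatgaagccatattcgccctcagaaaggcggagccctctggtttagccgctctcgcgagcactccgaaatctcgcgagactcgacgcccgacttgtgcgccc
Rpl27: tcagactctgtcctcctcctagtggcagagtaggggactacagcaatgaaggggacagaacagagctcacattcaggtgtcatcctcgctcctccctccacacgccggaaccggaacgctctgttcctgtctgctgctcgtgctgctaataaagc
Rpl11: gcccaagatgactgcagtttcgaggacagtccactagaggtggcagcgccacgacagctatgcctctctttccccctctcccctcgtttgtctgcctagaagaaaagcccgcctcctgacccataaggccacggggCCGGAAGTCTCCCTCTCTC
Rpl39: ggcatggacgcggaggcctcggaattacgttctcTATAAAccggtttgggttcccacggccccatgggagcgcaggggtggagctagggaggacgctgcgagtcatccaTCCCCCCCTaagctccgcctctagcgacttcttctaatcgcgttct
Rpl13a: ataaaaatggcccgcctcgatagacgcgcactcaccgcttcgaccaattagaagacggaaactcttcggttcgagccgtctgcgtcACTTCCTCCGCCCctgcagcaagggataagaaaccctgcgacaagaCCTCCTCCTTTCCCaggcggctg
Rps23: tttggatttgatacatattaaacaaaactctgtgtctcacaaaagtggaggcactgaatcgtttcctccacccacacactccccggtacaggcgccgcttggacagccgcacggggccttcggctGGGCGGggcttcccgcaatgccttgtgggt
Rpl7a: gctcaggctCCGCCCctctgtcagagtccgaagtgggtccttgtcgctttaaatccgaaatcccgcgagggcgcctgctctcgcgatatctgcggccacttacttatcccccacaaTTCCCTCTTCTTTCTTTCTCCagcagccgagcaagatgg
Rpl31: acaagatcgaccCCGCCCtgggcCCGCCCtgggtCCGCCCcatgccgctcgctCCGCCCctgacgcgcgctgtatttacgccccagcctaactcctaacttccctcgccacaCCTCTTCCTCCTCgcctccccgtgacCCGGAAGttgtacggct
The stretches lie at chr7:24884462-24884616 on the plus strand, chr11:101442115-101442269 plus, chr4:136053369-136053523 minus, chrX:37085198-37085352 minus, chr7:45128721-45128875 minus, chr13:90922992-90923146 plus, chr2:26910677-26910831 plus and chr1:39367721-39367875 plus. Of the 155 bases of each, 143 lay in the peak at Rps23, 127 at Rpl27, 79 at Rps19, 65 at Rpl7a, 51 at Rpl13a, 41 at Rpl39, 34 at Rpl31 and 32 at Rpl11.

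In cDC1, peaks sat at the ends of most ribosomal protein genes, and nearly all of those with a known strand were at the start. At least 1 cDC1 peak was assigned to 56 of the 87 genes, which is 64.4%, where the share over all protein-coding genes was 50.8% and over genes no longer than the longest member 35.3%. A peak centred within 1 kb of an end of its own gene stood at 49 of 87 genes (56.3%, exact 95% interval 45.3% to 66.9%). Of all protein-coding genes 26.4% had such a peak, and of those no longer than the longest member 20.6%. These shares depend on the fold limit of the list. With peaks of at least 8-fold only, 30 of the 87 genes had a peak (34.5%), below the 38.2% of all protein-coding genes and above the 22.9% of those no longer than the longest member. Near an own end 18 of 87 had a peak of at least 8-fold (20.7%, exact 95% interval 12.8% to 30.7%), against 13.9% and 9.96%. No test of the set was made, and the shares are given as a description. The 49 peaks belonged to the genes of subunit proteins: 26 of 43 for the large subunit (60.5%) and 23 of 30 for the small subunit (76.7%). None of the 14 paralogs, retrogenes and Rps19bp1 had one (upper exact 95% limit 23.2%). Such intervals of a share count genes or peaks as independent and measure no variation between mice or pools.

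**Figure D1:**
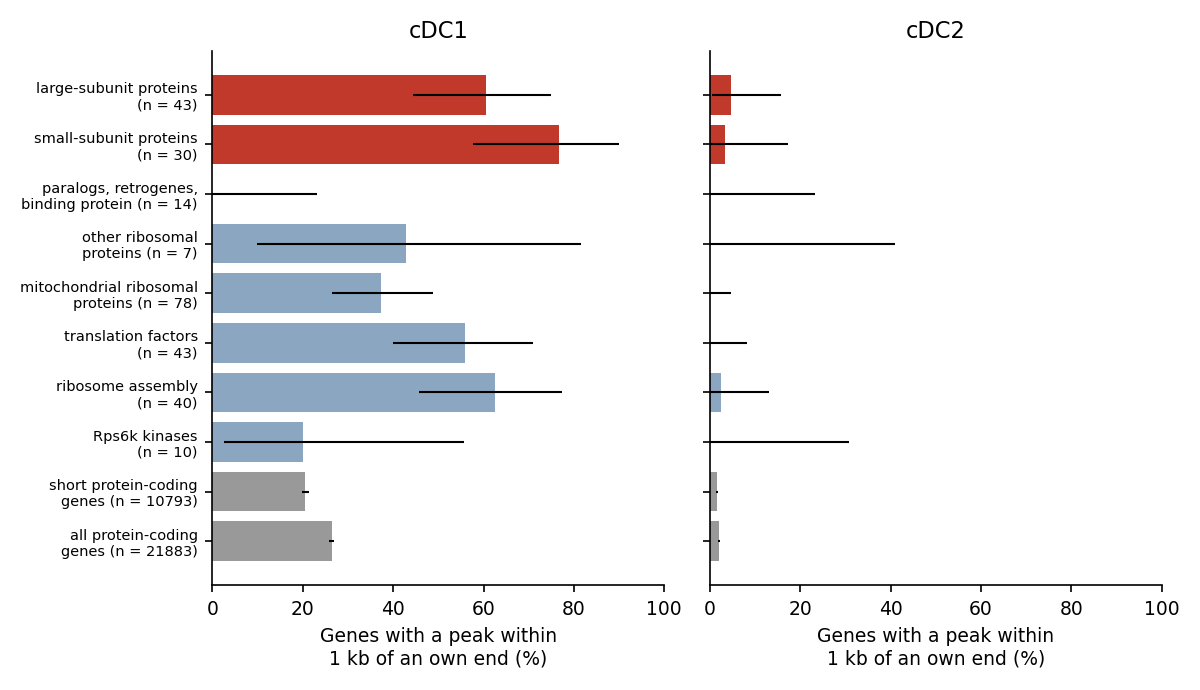
Share of genes with a peak centred within 1 kb of an end of their own gene, in cDC1 (left) and cDC2 (right), for groups of the ribosomal protein genes (red), related lists (blue) and background sets (grey). Short genes are those no longer than the longest ribosomal protein gene. Lines are exact 95% binomial intervals over genes, which measure no variation between pools. In cDC1 the small-subunit genes stood at 76.7% and all protein-coding genes at 26.4%, and in cDC2 no group exceeded 4.65%.

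Strand and promoter windows were matched by gene identifier for 67 of the 87 genes. Of these genes, 35 had a cDC1 peak within 250 bp of an annotated start (52.2%), against 21.9% of the 17491 protein-coding genes of the same promoter table. Within 1 kb of a start there was a peak at 39 of the 67 (58.2%), against 28.2% in that table. The 49 peaks near a gene end were centred a median of 131 bp from that end, 42 of them within 250 bp and the farthest at 733 bp. They fell evenly on both sides, with 25 centred outside the gene and 24 inside. Of the 38 with known strand, 37 lay within 1 kb of a start and ran from 444 bp upstream, and the other was that of Rps9, which lay 285 bp beyond the far end of the gene. In bins of 100 bp, 10 peaks of ribosomal protein genes were centred 200 to 100 bp upstream of a start, 4 in the last 100 bp before it, 9 in the first 100 bp after it and 10 in the next 100 bp. Other genes had the same low in the last 100 bp before the start, with 594 peaks between bins of 1037 and 963.

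**Figure D2:**
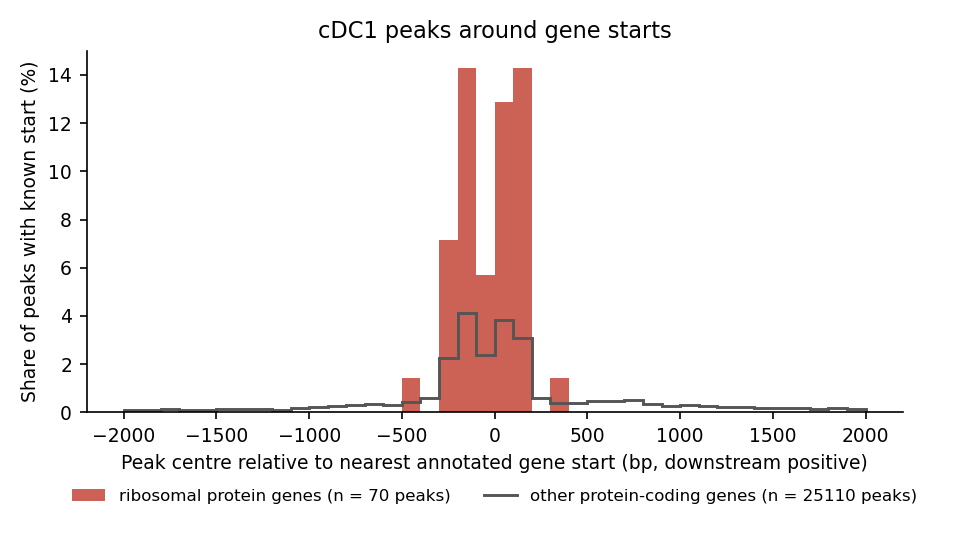
Position of cDC1 peak centres relative to the nearest annotated start of the assigned gene, in bins of 100 bp, as a percentage of all peaks assigned to genes with a known start (70 peaks of ribosomal protein genes in red, 25110 of other genes as a line). Bins on both sides of the start reached 14.3% for ribosomal protein genes, and the highest bin of other genes was 4.13%.

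Of all 92 cDC1 peaks assigned to the genes, 53.3% lay within 1 kb of an end (exact 95% interval 42.6% to 63.7%), against 20.3% of 31370 peaks of other genes. A further 5 lay deeper inside a gene, 12 lay 1 to 10 kb outside and 26 lay over 10 kb outside. Those 26 came from 12 genes and reached as far as 321.4 kb, where only nearness ties a peak to its gene.

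Among the small-subunit genes Rps19 carried the strongest peak. Rps19 is needed to mature the small subunit and is mutated in Diamond-Blackfan anaemia. Its gene lies on chromosome 7 from 24884592 to 24889811, and its peak at 24884350 to 24884540 was centred 147 bp upstream of the start. It held 87.0 normalised tags in wild type and 4.53 in knockout, a fold of 19.2 (95% interval 8.0 to 48.4). There were 309 wild-type and 5.5 knockout tags, the latter rounded to 6 for the interval. It stands apart from the other genes in the plot of gene-end peaks, where Rpl14 came next. Rps14, a protein of the mRNA exit region whose loss is linked to a myelodysplastic syndrome, held 43.6 normalised tags in wild type and 7.42 in knockout at 92 bp from an end, with a fold of 5.89 (95% interval 3.02 to 13.1). Rps9 held 42.9 against 3.30, a fold of 12.99 (95% interval 4.97 to 48.3), and this was the peak beyond the far end of the gene. Rps23, which lines the decoding centre, held 38.5 against 6.18 centred 83 bp upstream, and Rps29 held 38.3 against 6.59. The Rps29 peak lay 30 bp from an end of its gene.

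The remaining small-subunit peaks near a gene end were weaker. At the start of Rps15a the values were 23.1 normalised tags in wild type and 3.30 in knockout, and at Rps3, which contacts the incoming mRNA, 21.7 and 4.95. Rps21 held 79 wild-type tags with a fold of 6.0, Rps16 21.0 normalised tags against 4.53, Rps13 20.6 against 1.65, and Rps26, another gene of Diamond-Blackfan anaemia, 19.5 against 4.53 at 444 bp upstream. Rps3a1 and Rps7 both held 18.5, against 1.24 and 2.47 in knockout. Rps27 held 17.9 against 2.47, Rps15 15.8 against 3.30, Rps24 15.5 against 1.65 and Rps12 15.4 against 2.88. Rps6, the substrate of the S6 kinases, was among the lowest with 13.1 against 2.06, a fold of 6.36 (95% interval 1.69 to 26.4). Rps4x held 11.8 against 1.65 and Rps20 10.4 against 0.82. From Rpl14 downward, the wild-type intervals of neighbours in this order overlap in the plot of gene-end peaks, so their order is within counting error.

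The large-subunit genes covered a similar range, with a median of 21.8 normalised wild-type tags over 26 near-end peaks against 20.6 over the 23 of the small subunit. The median folds were 6.66 and 7.01. Rpl14 led with 54.6 normalised tags in wild type and 9.07 in knockout, 286 bp upstream of its start, a fold of 6.01 (95% interval 3.28 to 12.2). Its 11 knockout tags were the most at any of the 49 peaks. Rpl27 held 47.4 against 5.77, a fold of 8.23 (95% interval 3.90 to 20.7), centred 7 bp upstream of the start. Rpl39, a small protein of the exit tunnel, held 46.0 against 6.59 (fold 6.96, 95% interval 3.46 to 16.4). Rpl13a, which also takes part in silencing of inflammatory mRNAs after interferon gamma, held 38.2 against 4.53 (fold 8.42, 95% interval 3.45 to 21.3). Its peak was centred 175 bp upstream of Rpl13a and 2263 bp from the gene Flt3l, which encodes a growth factor of dendritic cells. Rpl11, which can bind Mdm2 and so tie ribosome assembly to p53, held 37.9 against 5.77 at 88 bp inside its start (fold 6.57, 95% interval 3.09 to 16.6). The 5 large-subunit peaks named so far had between 5.5 and 11 knockout tags.

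A few large-subunit peaks had low knockout tags and high folds. Rpl24, the gene altered in the belly spot and tail mouse, held 31.0 normalised tags against 1.24, a fold of 25.1 (95% interval 5.09 to 157.3), and Rpl30 held 29.9 against 1.24, a fold of 24.2 (95% interval 4.90 to 151.7). Rpl34 followed with 19.6 against 1.24 (fold 15.8, 95% interval 3.19 to 100.8). At Rpl24, Rpl30 and Rpl34 the 1.5 listed knockout tags were rounded to 2 for the interval but not for the fold. At Rpl37a, with 10.3 normalised tags, knockout tags were at the lowest listed value, which also stands for no tag, so that only the lower limit of the fold, 3.26 (exact, 95%), can be given. Other peaks lay close to the limit of the list. Rpl31 held 29.7 against 6.59 with a fold of 4.51, Rpl35 23.8 against 5.36 with 4.44, and Rpl23a 13.4 against 3.30 with 4.06. The rest of the large subunit fell between these: Rpl7a held 28.1 against 2.88 and Rpl10, needed in the last steps of large-subunit maturation, 24.4 against 3.71. Rpl38, known for its part in translation of Hox mRNAs, held 24.2 against 2.47, Rpl26 21.9 against 2.47, Rpl4 21.6 against 4.12 and Rpl36a 21.3 against 3.71. Rpl3, a protein close to the catalytic centre, held 20.6 against 3.30. Rpl10a, Rpl32, Rpl28, Rpl23, Rpl27a, Rpl29 and Rpl9 ranged from 17.8 down to 11.1 normalised wild-type tags. Rpl22, needed in T cell development, had no peak near an end of the gene but 1 at an internal start, with 11.7 against 1.65.

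**Figure D3:**
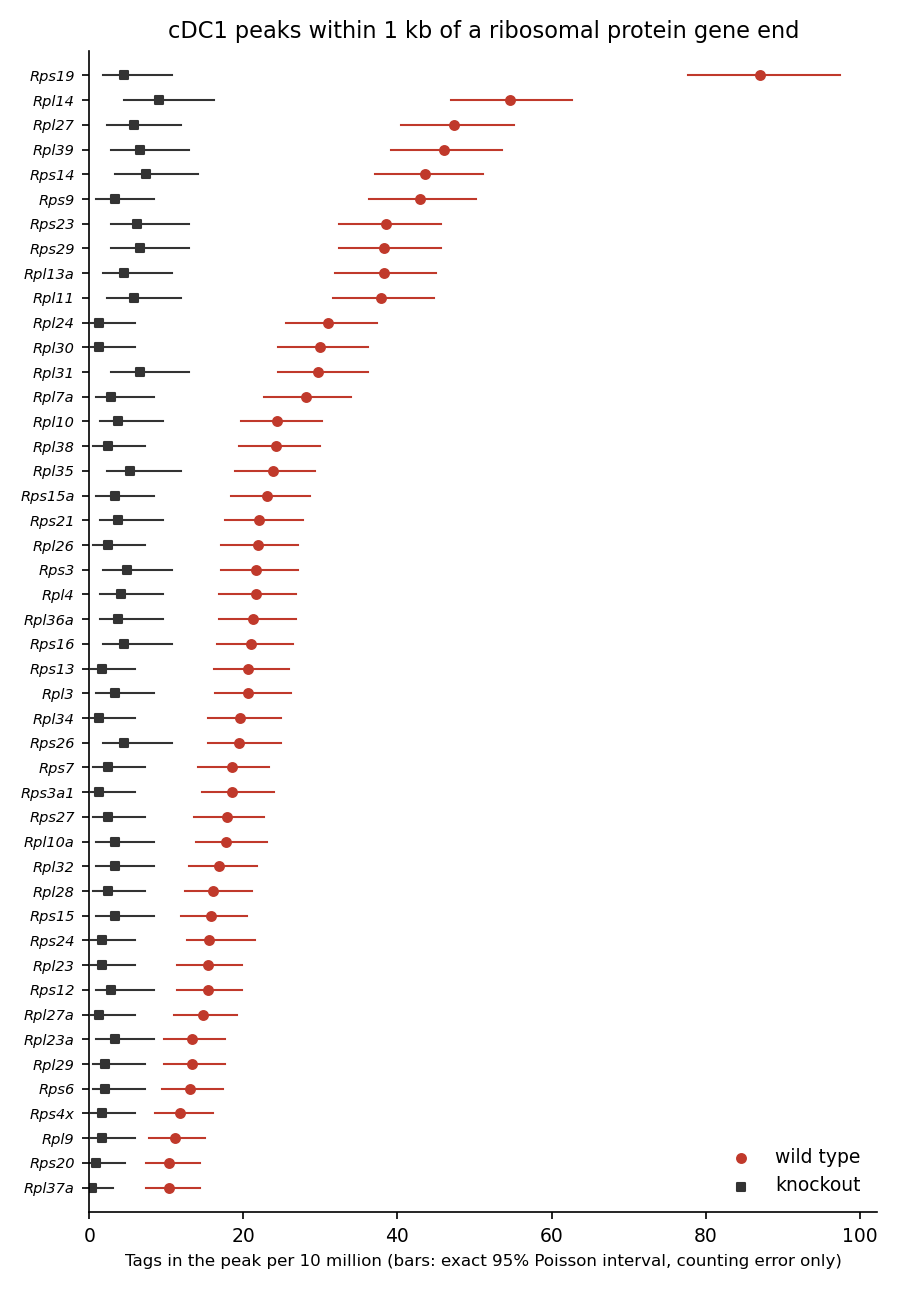
Normalised tags in wild type (circles) and knockout (squares) at 46 of the 49 cDC1 peaks within 1 kb of an end of a ribosomal protein gene, ordered by wild-type level, with exact 95% Poisson intervals that cover counting error only. Wild-type levels ran from 10.3 at Rpl37a to 87.0 at Rps19, and knockout levels reached 9.07 at Rpl14.

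The median knockout signal was higher, and the median fold lower, at gene ends than elsewhere, without a test. The 49 near-end peaks had medians of 21.3 normalised tags in wild type and 3.30 in knockout (4 tags) and a median fold of 6.75, with quartiles of 5.77 and 9.80. The 43 other peaks of the genes had 15.2 and 1.65 (2 tags), and a median fold of 10.5. Among other genes, near-end peaks and the rest had median folds of 8.03 and 10.9, and median knockout levels of 2.47 and 1.24. A fold below 8 was listed at 63.3% of the near-end peaks of ribosomal protein genes and at 49.3% of those of other genes. Knockout tags at the lowest listed value were found at 2.04% and 10.1%. All 49 lower 95% limits of the fold were above 1, the lowest at 1.47, while 5 reached 4. The largest p among them in the authors' deposited table was 4.89e-06, a Poisson p over tags, not over mice. The list required a fold of at least 4 and a Poisson p of at most 0.0001 over the same knockout tags. Limits above 1 and small p therefore follow from the selection and are no separate support for the folds. The lowest fold of the set, 4.06, lay just inside the limit of 4 for the list.

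**Figure D4:**
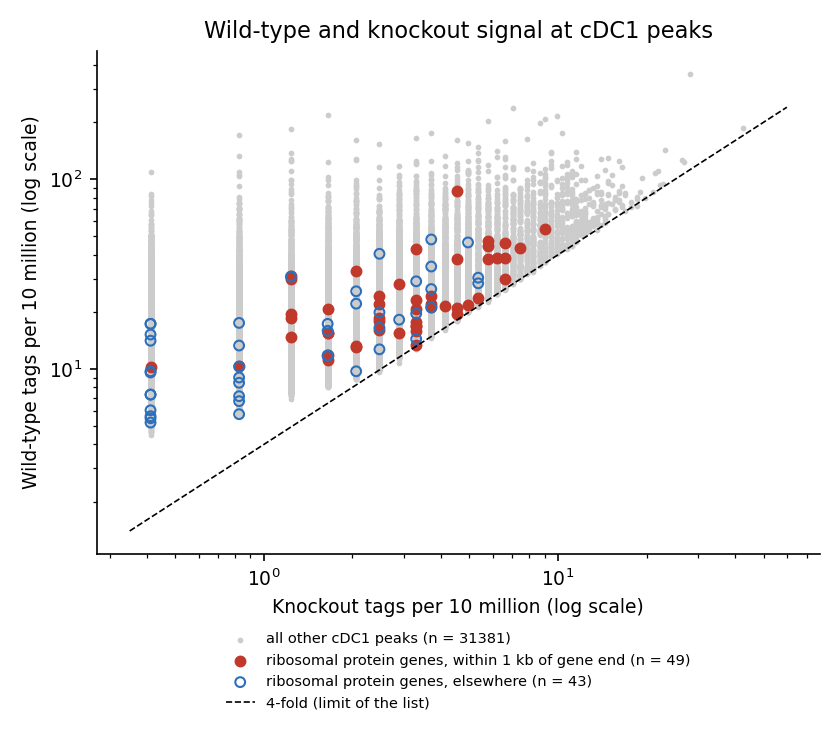
Wild-type against knockout normalised tags at all cDC1 peaks on log axes, with near-end peaks of ribosomal protein genes filled red, their other peaks as blue circles, all further peaks in grey and the 4-fold limit of the list dashed. Wild-type tags are on the vertical axis and knockout tags on the horizontal axis, with the lowest listed knockout value at the left. Near-end peaks have a median fold of 6.75, and Rps19 lies highest among them at 87.0 normalised wild-type tags.

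Some ribosomal protein genes lie so close to a neighbour that a peak near their end was assigned to the other gene. Counting every peak within 1 kb of an end, whatever its assignment, 57 of 87 genes had one (65.5%), against 30.5% of all protein-coding genes and 24.7% of those no longer than the longest member. The peak 518 bp beyond the far end of Rpl41, not at its start, went to Zc3h10 (48.6 normalised tags, fold 4.57). At gene starts, the peak of Rpl18 went to Sphk2 (40.5 normalised tags, fold 6.54), that of Rpl37 to Card6 (27.3, fold 6.06) and that of Rpl15 to Nkiras1 (26.8, fold 7.22). Those of Rps18, Rpl12 and Rps28 went to Vps52, Lrsam1 and Ndufa7 at 16.1, 15.9 and 15.5 normalised tags. In the other direction, 4 of the 49 near-end peaks also had an end of another gene within 1 kb: Rpl7a with Med22 at 220 bp, Rpl4 with Zwilch at 409 bp, Rps27 with Rab13 at 160 bp and Rpl9 with Lias at 210 bp. Which gene such a peak belongs to cannot be told apart. A set of 24 genes had neither an assigned peak nor one within 1 kb, among them 14 of subunit proteins, such as Rpl5, Rpl6, Rpl7, Rpl8, Rpl13, Rpl19, Rpl35a, Rpl36, Rps2, Rps10, Rps25 and Rps27a. Rpl5 is the partner of Rpl11 in binding Mdm2, and Rps27a is made as a fusion with ubiquitin. Absence from the list does not show absence of binding, since the 4-fold limit against knockout removed 64.5% of putative cDC1 peaks.

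The paralogs and retrogenes differed from the subunit genes in where their peaks lay. Of these 14 genes, Rps27l, Rpl3l, Rpl34-ps1 and Rps23rg1 had cDC1 peaks. Rps27l, a paralog induced by p53, had 2: 1 inside the gene, 180 bp upstream of an internal annotated start, with 28.3 normalised tags against 5.36 (fold 5.28, 95% interval 2.31 to 12.6), and 1 outside with 30.3 against 5.36. Rpl3l, a paralog expressed in muscle, held 14.1 normalised tags at a site within the gene, where the knockout value was the lowest listed (lower 95% limit of the fold 4.47). The peaks of Rpl34-ps1 and Rps23rg1 lay 7.68 to 75.6 kb outside and reached 9.59 and 7.33 normalised tags. Rpl22l1, Rpl10l, Rpl36al, Rpl39l, Rpl32l, Rpl7l1, Rpl37rt, Rps27rt, Rpl31-ps12 and Rps19bp1 had none.

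Most genes with a peak had only 1, 38 of 56, and 5 had at least 4. Rpl38 had 7, of which 2 lay inside the gene (24.2 and 19.6 normalised tags) and the other 5 outside by 12.1 to 199.2 kb. Rpl14 had 6, with a second strong peak of 48.2 normalised tags against 3.71 in knockout that lay 100.3 kb beyond the gene (fold 13.25, 95% interval 5.01 to 37.1). Rpl34 had 5, of which the strongest, with 30.7 against 1.24, lay 169.9 kb away (fold 24.8, 95% interval 5.04 to 155.9). Rpl11 and Rps3a1 had 4 each. The strongest of Rpl11 was not at its start but 2.91 kb upstream, with 46.5 normalised tags against 4.95 (fold 9.43, 95% interval 4.23 to 26.0). The strongest of Rps3a1 lay 26.5 kb upstream with 26.4 against 3.71. Genes of the immune system, picked out after the values were seen, lay near some distant peaks. The peak of 34.7 normalised tags 10.8 kb outside Rps14 was centred 14468 bp from Cd74, the class II invariant chain, and that of 15.2 normalised tags 18.9 kb outside Rps20 was centred 21120 bp from Lyn, a kinase of immune receptors. Rps29 had the farthest peak, 321.4 kb away, with 40.5 against 2.47 (fold 16.4, 95% interval 5.51 to 80.6).

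In cDC2, peaks at ribosomal protein genes were few. They were assigned to 6 of 87 genes, 6.9%, where the share was 9.44% of all protein-coding genes and 5.07% of those no longer than the longest member. Near an own end 3 genes had a peak (3.45%, exact 95% interval 0.72% to 9.75%), against 2.03% of all protein-coding genes and 1.6% of those no longer than the longest member. Counting peaks of any assignment, 3 genes had one, against 2.32% and 1.92% in the same background sets. Among the 67 genes with a promoter window only Rpl11 had a cDC2 peak within 250 bp of a start (1.49%, against 1.31%), and also within 1 kb (against 2.21%). The genes with a peak were Rpl11, Rps20, Rps29, Rpl17, Rpl38 and Rpl23, with 8 peaks in all. The peak at the start of Rpl11 was the strongest, with 35.6 normalised tags in wild type and 3.66 in knockout, a fold of 9.72 (95% interval 2.34 to 43.1). It stood within 1 bp of the same place as in cDC1, where the levels were 37.9 and 5.77. The other Rpl11 peak, 7.22 kb outside, held 13.6 normalised tags with knockout at the lowest value.

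Rps20, a protein of the small-subunit head, had a cDC2 peak inside the gene, 218 bp from an end, with 20.9 normalised tags and the lowest listed knockout value (lower 95% limit of the fold 3.20). The overlapping cDC1 peak was among the weakest of the near-end set at 10.4. Its second cDC2 peak, 18.8 kb outside, held 29.3 against 5.13 (fold 5.72, 95% interval 1.57 to 20.9), where cDC1 held 15.2 and the lowest listed knockout value. The distant Rps29 peak held 24.1 in cDC2 and 40.5 in cDC1, and the distant Rpl38 peak, 98.7 kb outside, 15.7 and 17.3. In cDC2 these levels rest on 12 and 8 wild-type tags. Rpl17 held 24.1 against 2.20 inside the gene at a place that did not overlap its cDC1 peak. Rpl23 had its cDC2 peak 576 bp beyond the far end of the gene, with 14.7 normalised tags (lower 95% limit of the fold 2.06), while its cDC1 peak lay 102 bp inside the start. No test between subsets was made, since a single wild-type library stands behind cDC2.

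An overlap with the cDC1 list was found for 6 of the 8 cDC2 peaks, and over the whole cDC2 list for 1767 of 2776 peaks. Of the 92 cDC1 peaks, 6 (6.52%) overlapped the cDC2 list, and the share over all cDC1 peaks was not computed. These overlaps are therefore not read as a trait of the ribosomal protein genes. The depth of the cDC2 sets was set beside this count by scaling the cDC1 tags to it. With expected tags, 63 of the 92 cDC1 peaks met the tag, fold and p limits of the cDC2 list against knockout (68.5%, against 52.0% of all cDC1 peaks). Of the 63, 4 overlapped a listed cDC2 peak (6.35%), where the share over all cDC1 peaks that met the limits was 9.41%. Near gene ends 41 of 49 met the limits and 1 of these was listed, that of Rpl11, and over all genes 5.56% of such near-end peaks were listed. Listed peaks held 6.47% of the wild-type tags of cDC1 and 0.79% of those of cDC2, and the part of this difference in the counts was not tested.

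Other genes of translation were counted in the same way, from lists that share the process but not the symbol. Among 7 ribosomal proteins outside the symbol rule, 4 had a cDC1 peak and 3 had one near an own end (42.9%). Rplp0, which anchors the stalk of the large subunit, held 14.2 normalised tags against 1.65 at 54 bp from its start (fold 8.89, 95% interval 2.34 to 75.4), and Rpsa, also a laminin receptor, 12.4 against 1.65. Rplp1 had a stronger peak of 83.0 that lay 210.6 kb away, and that of Rack1, a scaffold on the small subunit, held 35.5 at 12.4 kb. Of 40 ribosome assembly genes, 25 had a near-end cDC1 peak (62.5%), and of 43 translation factors 24 (55.8%). The highest-scoring assembly peaks were those of Fbl, the methyltransferase fibrillarin, with 113.9, Polr1a with 105.2 and Utp18 with 73.3, all over 1 kb from an end. Eif5a led the translation factors with 84.3 against 16.9 in knockout (fold 5.02, 95% interval 3.15 to 8.04), followed by Eif5 and Tpt1. The mitochondrial ribosomal proteins, which build a separate ribosome, had a near-end peak at 29 of 78 genes (37.2%). The highest-scoring peak of that list, of Mrpl18 at 87.3, lay inside the gene 1.49 kb from an end and was not among these. Of the 10 Rps6k kinases, 8 had a cDC1 peak but 2 near an own end (20.0%), and Rps6ka5 reached 100.9. With internal starts counted, 4 of the 10 had a peak within 250 bp of an annotated start (40.0%, against 17.5% of all protein-coding genes). In cDC2 these lists had a peak at 2 of 7, 2 of 40, 2 of 43, 1 of 78 and 3 of 10 genes in the same order, and near an own end only Nop10 of ribosome assembly had one, at 16.8.

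The promoter windows, 250 bases before to 50 bases after an annotated start, differed in composition from those of other genes in ways the symbol rule did not use. With 1 window a gene, CCGGAAG stood in 23 of 67 windows of ribosomal protein genes (34.3%) and in 11.9% of 17491 windows of all protein-coding genes. A run of at least 7 C or T within 30 bases of the start stood in 42 of 67 (62.7%) and in 33.2%, as at Rpl7a, Rpl13a, Rpl11 and Rpl31 above. GGGCGG was found in 55.2% and 46.3%, TATAAA in 10.4% and 13.3%, AAGATGGC in 7.46% and 3.23%, and TGACGTCA in 7.46% and 2.34%. GAGGAAGT was found in 4.48% and 3.17%, the interferon-stimulated response element in 10.4% and 3.40%, and TGANTCA in 2.99% and 7.08%. Subunit genes were split by whether a near-end cDC1 peak was assigned to the gene itself. CCGGAAG stood in 12 of 38 windows with such a peak and in 9 of 16 without, and the run of C or T in 26 of 38 and 9 of 16. GAGGAAGT stood in 3 of 38 and 0 of 16. The 16 include Rpl12, Rpl15, Rpl18, Rpl37, Rpl41, Rps18 and Rps28, whose near-end peaks went to neighbours. They also include Rpl22 with its peak at an internal start, and the 38 include Rps9 with its peak beyond the far end. The split is therefore not one by presence of a peak at the promoter. A match describes letters only and is no evidence of a bound factor.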

How the data were processed

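The members and lists were chosen with earlier results of these data known. Named genes were those with a cDC2 peak, the 10 highest-scoring cDC1 genes, those with a peak within 250 bases of a start, and those with at least 4 peaks, plus up to 3 genes of each other list. Other members with a peak are named with their values, and neighbouring genes were picked out after their values were seen. Peaks were called with HOMER on 1 wild-type and 1 knockout tag set per subset, at a false discovery rate of 0.001, a fold of at least 4 and a Poisson p of at most 0.0001 over knockout and over the surrounding 10 kb, per the file headers. GRCm38 and mm10 (names of 1 assembly) and HOMER come from the submitters' processing notes; the sources used here give neither the aligner nor whether every library entered its set. The signal the authors deposited is wild-type tags per 10000000, the deposited score is HOMER's, and the deposited fold (a ratio), p-value and focus ratio (a fraction, not used) are the authors'. Wild-type tag totals come from the file headers, knockout totals were inferred here from the listed tags, and a knockout value of 0.5 tag also stands for no tag. Peaks were assigned to the protein-coding gene containing the centre, or else with the nearest end (Python 3.11.15, pandas 2.3.3, SciPy 1.17.1); the assignment was tested on simulated data. Since the lists hold no value per library, no test between genotypes was made here. 3 tags equal 2.47 normalised tags in the cDC1 knockout and 4.40 in that of cDC2. Tags without molecular identifiers are not independent molecules, so intervals cover counting error only. For these intervals tags were rounded to whole numbers, upward when midway, except that 0.5 knockout tag counted as none. The deposited folds use unrounded tags, so a fold need not lie at the centre of its interval. Some members are counted but not reported here by name.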

Additional observations from a re-analysis of the deposited data

How the results depend on the processing

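No paired analysis was possible because the lists hold pooled tags with no value per library, and for the same reason no library could be left out. Of 30 alternative values of 8 main results, 22 stayed within 1.5 times the count or within the 95% interval. With a fold of at least 8 over knockout, 30 genes in place of 56 had a cDC1 peak (34.5%, against 38.2% of all protein-coding genes), 18 in place of 49 had one near an own end (20.7%, against 13.9%; added after seeing the data), the share of peaks near a gene end fell from 53.3% to 37.5%, and the median fold was 12.8 in place of 8.22 by construction. The higher-scoring 50% of cDC2 peaks left 3 genes in place of 6. With only peaks inside the gene or within 10 kb, the share near an end was 74.2% and the median fold 6.99. Adding 1 tag to both genotypes lowered the median fold of 69 named peaks from 8.72 to 6.34, and 65 of the recomputed folds were still at least 4. All 69 lay within their exact intervals, but 1 added tag could hardly move a fold out of an interval from the same counts. That part is therefore no check of the folds. With expected tags at the cDC2 depth, 46 of 87 genes kept a cDC1 peak. The share of all protein-coding genes under this rule was not computed, so the count has no background. Of all cDC1 peaks, 52.0% met the limits. Low knockout tags limit the precision of every fold here, and 13 of the 92 cDC1 peaks were at the lowest knockout value.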

Other observations

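Many ribosomal protein genes host small nucleolar RNA (snoRNA) genes in their introns. Of the 28 members with a snoRNA gene inside, 18 had a cDC1 peak near an own end, and of the 59 without, 31 had one. The 59 include all 14 paralogs, retrogenes and Rps19bp1, none of which had such a peak. These counts therefore do not compare subunit genes alone, and no excess at genes with a snoRNA can be read from them. Processed pseudogenes copy the messenger RNAs of these genes many times over the genome. Of 309 ribosomal protein pseudogenes in the table, the lists placed 1 cDC1 peak and 0 cDC2 peaks with its centre inside one. No share over other pseudogenes or over sequence of equal length was computed. The count therefore does not show whether these copies had fewer peaks than other regions. The sources used here do not say how reads matching several copies were treated.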
